A study of Mus musculus with 6 samples.

Results

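The genes described here are 9 genes tied to polycystic kidney disease, taken as a list: Pkd1, Pkd2, Pkhd1, Bicc1, Anks6, Glis2, Glis3, Ganab and Prkcsh. A gene was measured where the array's annotation gave a probe set exactly 1 symbol equal to its name, and 8 of the 9 had such a probe set, 1 each, among 22180 genes tested. Pkd2, which encodes polycystin-2, was not analysed here. The arrays were hybridised with total RNA of kidneys from untreated mice at 4 weeks of age, 3 labelled Cre-positive and 3 labelled Cre-negative. The labels give the same lines for every sample: a Pals1/Mpp5 conditional knockout in a C56Bl/6 background, and Six2-Cre transgenic mice, on a mixed background. The Six2 promoter drives Cre in nephron progenitors, whose descendants run from podocytes to distal tubule, while collecting ducts have another origin and lie outside the targeted lineage. The number of conditional Mpp5 alleles in each mouse is not given in the sources used here, nor whether each sample is a separate mouse. The p-values therefore measure only how these 6 samples vary, and that variation may be partly technical.

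Polycystic kidney disease arises when tubule cells lose the control of tubule diameter and fluid-filled cysts replace the nephron. Most of its genes act at the primary cilium or on the way to it. Polycystin-1 (Pkd1) and the cation channel polycystin-2 (Pkd2) form a receptor-channel complex in cilia, fibrocystin (Pkhd1) is a ciliary membrane protein mutated in the recessive disease, Bicc1 is an RNA-binding protein that binds the ankyrin repeat protein Anks6, Glis2 and Glis3 are zinc finger transcription factors related to the GLI proteins, and Ganab and Prkcsh encode the catalytic and regulatory subunits of glucosidase II, which trims glycans of new proteins such as polycystin-1 in the endoplasmic reticulum (ER).

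Values are log2 levels after robust multi-array averaging (RMA), and differences are Cre-positive minus Cre-negative log2 values ± SE from limma, fitted over all 22180 genes, with Benjamini-Hochberg adjusted p and a threshold of 0.05. Mpp5, the gene of the conditional line, stood at 8.04, 8.06 and 8.20 in Cre-positive arrays, against 8.66, 8.69 and 8.78 in Cre-negative arrays (-0.61 ± 0.09, limma adjusted p = 0.00232), but whether its probe set covers the deleted exons is not given in the sources used here. Cre-negative replicates 1 and 2 carried female transcripts, with Xist at 10.76 and 10.70, and the other 4 arrays carried male ones, so the differences of the called members from the male array, Cre-negative replicate 3, are also given, and the plot of differences shows them for all 8. Transcripts of skeletal muscle were high in Cre-positive replicate 2, and those of adrenal gland in Cre-negative replicate 2. Kidney markers were present throughout, with the mean level of 6 proximal tubule markers at 10.73 to 10.86 in Cre-positive and 11.85 to 11.96 in Cre-negative arrays.

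Of the 8 measured genes, Pkd1 and Bicc1 rose, Ganab fell, and the other 5 did not pass the test. The 3 called genes are 37.5% of the 8, where 21.8% of all tested genes were called, 10.7% higher and 11.1% lower. After median centring 38.2% of the called genes were on the higher side, against 49.0% without it. In bulk kidney fewer cells of a type and less RNA per cell cannot be told apart. With the sex term 0 of the 8 were called, where 9.15% of all genes were. This count was also 0 with male arrays only (4.96% of all genes) and without both arrays that held transcripts of other tissues (8.35% of all genes). At an unadjusted p under 0.05, limma gave 5 of the 8 genes in the fit without covariates, where 33.4% of all genes passed. The median difference of the 8 genes was 0.22, against -0.01 over all genes, and their median absolute difference was 0.30, against 0.16. 6 of the 8 were higher and 2, the glucosidase II subunits, were lower in Cre-positive arrays. For 4 of the 8 genes the groups did not overlap, where this held for 38.5% of all tested genes, and the exact two-sided permutation test of such a gene gives p = 0.1, the smallest that 3 against 3 arrays allow.

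**Figure D1:**
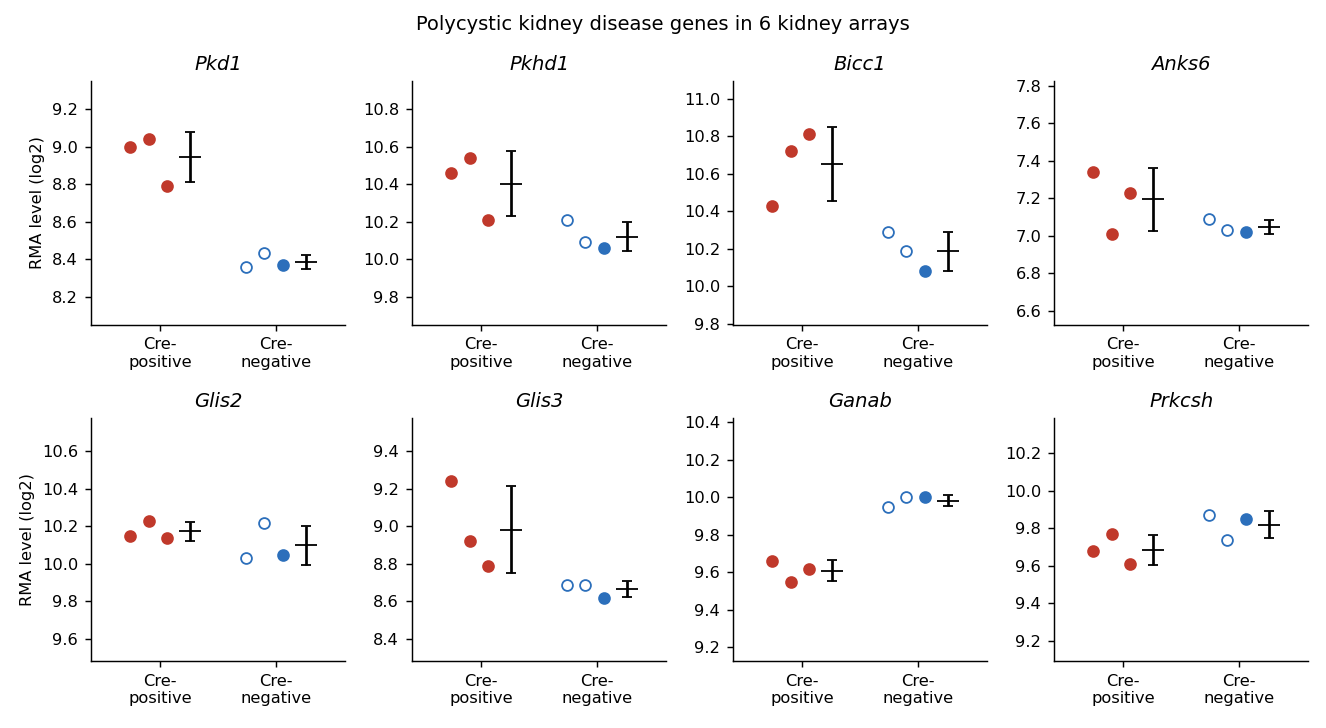
Log2 RMA level (vertical axis, every panel spanning the same range) of the 8 measured genes in 3 Cre-positive (red) and 3 Cre-negative (blue) arrays, replicates 1 to 3 from left to right, with black bars for the mean ± SD. Open points are the 2 arrays with female transcripts. Pkd1 and Bicc1 lie higher and Ganab lower in all 3 Cre-positive arrays, and the other genes shift less or overlap.

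Pkd1 rose in Cre-positive kidneys and had the largest difference of the 8 genes. Its level (probe set 17334304) was 9.0, 9.04 and 8.79 in Cre-positive arrays, against 8.36, 8.43 and 8.37 in Cre-negative arrays. The Cre-positive arrays were all higher, with a wider spread (8.94 ± 0.14 in Cre-positive and 8.39 ± 0.04 in Cre-negative arrays, SD, n = 3 each). The difference was 0.56 ± 0.09, limma adjusted p = 0.00507, which is a linear ratio of 1.47 (95% interval 1.26 to 1.71). The call held in each of the 6 fits that left out 1 array, with limma adjusted p from 0.00324 to 0.0259. Against the male Cre-negative array alone the difference was 0.57, and with sex as a second factor in the fit it had an SE of 0.15 and limma adjusted p = 0.0576, so it no longer passed. The 2 female Cre-negative arrays averaged 8.40, close to the 8.37 of the male one.

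The window of RefSeq sequence around the Pkd1 start (250 bases before to 50 after it, GRCm38.p6, chr17:24549700-24549999, plus strand) is shown because Pkd1 had the largest difference. It holds 5 copies of the GC box GGGCGG on either strand, in capitals, a motif that 35.7% of 32851 such windows hold at least once.
Pkd1: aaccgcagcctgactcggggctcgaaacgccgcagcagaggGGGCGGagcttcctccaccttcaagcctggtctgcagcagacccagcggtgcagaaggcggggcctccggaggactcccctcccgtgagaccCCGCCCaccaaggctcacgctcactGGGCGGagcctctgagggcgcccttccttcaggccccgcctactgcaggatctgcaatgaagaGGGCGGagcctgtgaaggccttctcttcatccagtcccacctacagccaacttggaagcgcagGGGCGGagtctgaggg

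The genes whose profile over the 6 arrays was most like that of Pkd1 were Adamts17, Zswim8 and Epn2, with Pearson r of 0.9993, 0.9983 and 0.9978. These values describe 6 arrays in 2 groups, and 612 genes had r over 0.95 with Pkd1. Adamts17 differed by 0.44 ± 0.09, Zswim8 by 0.60 ± 0.10 and Epn2 by 0.48 ± 0.09, all higher in Cre-positive arrays. Pkd2l2, a relative of polycystin-2, fell. It was the single called gene among 7 measured relatives of Pkd1, Pkd2 and Pkhd1 (14.3%, against 21.8% of all tested genes). It stood at 4.94, 4.94 and 5.05 in Cre-positive arrays, against 5.64, 5.51 and 5.51 in Cre-negative arrays (-0.58 ± 0.09, limma adjusted p = 0.00276, and 0.0518 with the sex term). All 7 relatives had differences below 0, with a list median of -0.11, and all were at group means of 4.09 to 5.55, near the low end of the scale, where RMA compresses differences.

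Fibrocystin transcript did not pass the test. Pkhd1 (probe set 17221553) stood at 10.46, 10.54 and 10.21 in Cre-positive arrays, against 10.21, 10.09 and 10.06 in Cre-negative arrays. The groups touched, because Cre-positive replicate 3 was no higher than Cre-negative replicate 1. The difference was 0.28 ± 0.11 (95% interval 0.03 to 0.54, limma adjusted p = 0.108, unadjusted p = 0.0318). Without Cre-positive replicate 3 it was 0.38 with limma adjusted p = 0.0287, and after a second quantile normalization 0.41 with limma adjusted p = 0.0470. The call thus turned on 1 array and on the scaling, while the difference was positive in every alternative run (0.20 to 0.41).

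Bicc1 rose. Its level (probe set 17241731) was 10.43, 10.72 and 10.81 in Cre-positive arrays, against 10.29, 10.19 and 10.08 in Cre-negative arrays. All 3 Cre-positive arrays were higher, but replicate 1 by little. The difference was 0.47 ± 0.12, limma adjusted p = 0.0281, a linear ratio of 1.38 (95% interval 1.14 to 1.67). This call was fragile: it held without Cre-positive replicate 1 (limma adjusted p = 0.00953) but not without Cre-positive replicate 2 (0.0912) or 3 (0.0656), nor without Cre-negative replicate 1 (0.0535), 2 (0.0782) or 3 (0.0937). Against the male Cre-negative array the difference was 0.57. With sex as a second factor in the fit, the difference between the groups had limma adjusted p = 0.0933. The male array had the lowest Bicc1 level of the Cre-negative group.

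Anks6, the ankyrin repeat partner of Bicc1, stood at 7.34, 7.01 and 7.23 in Cre-positive arrays, against 7.09, 7.03 and 7.02 in Cre-negative arrays. The groups overlapped, since Cre-positive replicate 2 lay below all Cre-negative arrays, and the difference was 0.15 ± 0.10 (95% interval -0.09 to 0.39, limma adjusted p = 0.368). Bicc1 exceeded Anks6 in its change by 0.32 (95% interval -0.22 to 0.85). The exact permutation test gave p = 0.3 (two-sided, 0.3 after adjustment over 3 partner pairs compared after their values were seen). The smallest exact permutation p of 3 against 3 arrays is 0.1, so none of the 3 pairs could pass at 0.05. This exact permutation test therefore cannot show whether the changes of Bicc1 and Anks6 differed. Among 7 measured genes of the inversin compartment, where Anks6 acts, and of Bicc1 partners, limma called 0, against 21.8% of all tested genes. At an unadjusted limma p under 0.05 there were 0, against 33.4% of all tested genes. The differences of these 7 genes ran from -0.20 to 0.17, with 6 below 0 and 1 above. For 4 of the 7 the groups did not overlap, where this held for 38.5% of all tested genes.

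The 2 GLI-related factors did not pass. Glis3 (probe set 17363727) stood at 9.24, 8.92 and 8.79 in Cre-positive arrays, against 8.69, 8.69 and 8.62 in Cre-negative arrays. The groups did not overlap, but the Cre-positive arrays were widely spread, and the difference was 0.32 ± 0.12 (95% interval 0.03 to 0.60, limma adjusted p = 0.109, unadjusted p = 0.0323). Without Cre-positive replicate 3 it was 0.42 with limma adjusted p = 0.0456. Glis2 stood at 10.15, 10.23 and 10.14 in Cre-positive arrays, against 10.03, 10.22 and 10.05 in Cre-negative arrays. These groups overlapped, and the difference of 0.07 ± 0.09 had a 95% interval from -0.14 to 0.28 (limma adjusted p = 0.65). The change of Glis3 exceeded that of Glis2 by 0.25 (95% interval -0.18 to 0.67). The exact permutation test gave p = 0.2 (two-sided, 0.3 after adjustment over the 3 pairs), and it could not pass at 0.05 whatever the values.

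**Figure D2:**
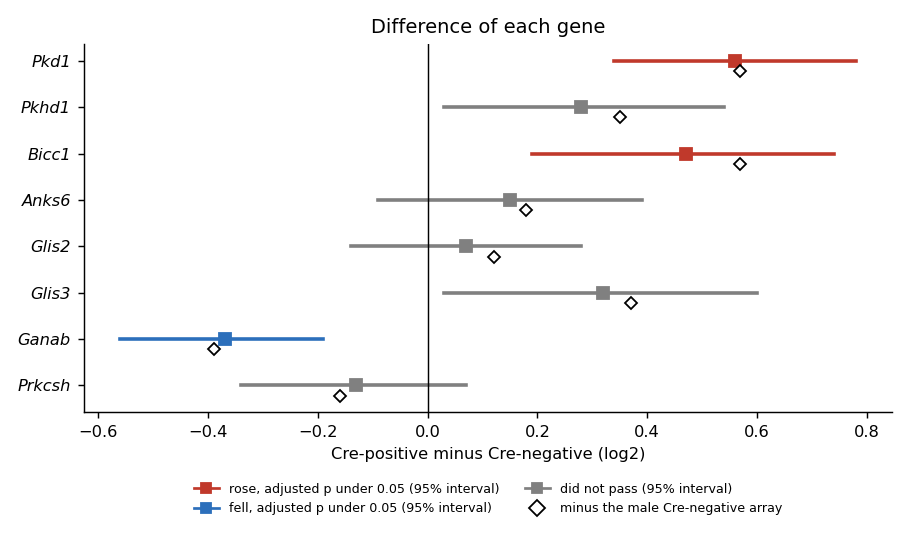
Difference of each gene, Cre-positive minus Cre-negative log2 level (squares), with the 95% interval from limma (lines), red for genes that rose, blue for the gene that fell and grey for the others. Diamonds are the difference from the male Cre-negative array alone, which lies on the same side of 0 as the square for all 8 genes.

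Ganab, the catalytic subunit of glucosidase II, fell. Its level (probe set 17357280) was 9.66, 9.55 and 9.62 in Cre-positive arrays, against 9.95, 10.00 and 10.00 in Cre-negative arrays. The groups were tight and well apart (9.61 ± 0.06 in Cre-positive and 9.98 ± 0.03 in Cre-negative arrays, SD, n = 3 each). The difference was -0.37 ± 0.08, limma adjusted p = 0.013, so that the linear level fell by 22.9% (ratio 0.771, 95% interval 0.679 to 0.877). The call was lost without Cre-negative replicate 2, at limma adjusted p = 0.0539 with the same difference of -0.37, and held without each of the other 5 arrays. Against the male Cre-negative array the difference was -0.39. With sex as a second factor in the fit, the difference between the groups had limma adjusted p = 0.103.

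Prkcsh, the regulatory subunit, did not pass the test. It stood at 9.68, 9.77 and 9.61 in Cre-positive arrays, against 9.87, 9.74 and 9.85 in Cre-negative arrays, and the groups overlapped. The difference was -0.13 ± 0.09 (95% interval -0.34 to 0.07, limma adjusted p = 0.346). The change of Ganab minus that of Prkcsh was -0.24 (95% interval -0.50 to 0.01), with no overlap of the groups and exact permutation p = 0.1, the smallest possible (two-sided, 0.3 after adjustment over the 3 pairs), so this test could not pass at 0.05 whatever the values.

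Glucosidase II works between the translocation channel that brings proteins into the ER and the calnexin cycle that folds them. Of 20 measured genes of ER translocation, glycosylation and the calnexin cycle, 4 fell and 0 rose. This is 20.0%, near the share of all tested genes. 18 of the 20 had differences below 0, with a median of -0.14. Sec62, a translocation subunit, was the firmest: 9.52, 9.37 and 9.42 in Cre-positive arrays, against 9.97, 9.98 and 9.91 in Cre-negative arrays (-0.51 ± 0.08, limma adjusted p = 0.00393, and 0.0664 with the sex term). Edem1, which directs misfolded glycoproteins to degradation (-0.37 ± 0.10), Lman1, a cargo receptor (-0.32 ± 0.09), and Dnajb11, an ER chaperone cofactor that is itself mutated in an atypical form of polycystic disease (-0.37 ± 0.11), also fell. These last 3 calls were close to the threshold. Each of Edem1 and Lman1 held in 1 of the 6 fits that left out 1 array, and Dnajb11 in 0, with limma adjusted p up to 0.106, 0.148 and 0.136. Edem1 also lost its call in the mean over both of its probe sets (-0.27, limma adjusted p = 0.0529). With the sex term Dnajb11 alone of the 4 passed (limma adjusted p = 0.0467).

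The Ganab window (GRCm38.p6, chr19:8897807-8898106, plus strand) is shown because ER chaperone promoters often carry an ER stress response element, searched as CCAAT, any 9 bases, then CCACG, which includes a CCAAT box. The full element was found on either strand in 0.119% of the windows, among the listed genes in Calr, Canx and Hspa5, none of which passed the test, and in no window of the 6 polycystic kidney disease genes that had one. Ganab holds the CCAAT box alone, 2 copies in capitals, as 37.4% of windows do at least once.
Ganab: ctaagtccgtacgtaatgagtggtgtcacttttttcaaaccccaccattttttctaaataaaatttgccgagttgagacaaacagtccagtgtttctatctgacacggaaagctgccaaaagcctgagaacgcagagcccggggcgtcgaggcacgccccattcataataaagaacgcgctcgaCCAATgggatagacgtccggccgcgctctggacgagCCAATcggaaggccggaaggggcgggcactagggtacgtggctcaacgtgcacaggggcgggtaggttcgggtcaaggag

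Among other genes whose mutation gives cystic or related kidney disease, 1 of 19 measured genes rose and 3 fell. This is 21.1%, against 21.8% of all tested genes, with a median of -0.03. The rise was large: Muc1, an apical mucin mutated in tubulointerstitial kidney disease, stood at 10.39, 10.29 and 10.11 in Cre-positive arrays, against 8.97, 9.24 and 8.92 in Cre-negative arrays. The Cre-positive level was 2.33 times the Cre-negative level (1.22 ± 0.12, limma adjusted p = 0.000468, and 0.00603 with the sex term). Besides Dnajb11, the falls were those of Bbs1, a subunit of the BBSome that carries membrane proteins in cilia (-0.67 ± 0.12), and Tulp3, which brings receptors into cilia and is a modifier of cyst growth in mice (-0.31 ± 0.09). Bbs1 held in all 6 fits that left out 1 array and Tulp3 in 1. Both lost their calls with the sex term (limma adjusted p = 0.113 for Bbs1 and 0.155 for Tulp3).

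In polycystic kidneys, raised cyclic AMP drives chloride secretion into cysts, and the genes that make, break down and answer cyclic AMP moved in both directions here. 6 of 21 measured genes rose and 2 fell (38.1% called, against 21.8% of all tested genes, median 0.17). Cftr, the chloride channel of cyst fluid secretion, stood at 7.34, 7.39 and 6.73 in Cre-positive arrays, against 6.36, 6.01 and 6.24 in Cre-negative arrays (0.95 ± 0.19, limma adjusted p = 0.00918, and 0.098 with the sex term). Slc12a2, the cotransporter that loads cells with chloride, rose by 0.46 ± 0.11, a call that held in 3 of the 6 fits that left out 1 array. Among the enzymes, the adenylyl cyclase gene Adcy7 rose most, to 7.05, 7.93 and 7.93 in Cre-positive arrays, against 6.43, 6.50 and 6.13 in Cre-negative arrays (1.28 ± 0.24, limma adjusted p = 0.00709). The phosphodiesterase genes Pde3b (0.88 ± 0.18) and Pde3a (0.62 ± 0.14) rose, and Pde4c fell (-0.57 ± 0.14). Pde3a lost its call without Cre-negative replicate 1 or 3 (limma adjusted p up to 0.0618), and Pde4c held in 1 of the 6 fits that left out 1 array. With sex as a second factor 1 of the 8 calls, that of Adcy7, was left, with limma adjusted p = 0.0393.

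The GLI proteins share the zinc finger type of Glis2 and Glis3 and carry hedgehog signals, which pass through the cilium. Of 12 measured genes of this group 4 rose and 1 fell (41.7% called, against 21.8% of all tested genes, median -0.03). Gli1, a factor that is also a target of hedgehog signals, stood at 6.38, 6.56 and 6.51 in Cre-positive arrays, against 5.52, 5.48 and 5.11 in Cre-negative arrays (1.11 ± 0.13, limma adjusted p = 0.00088, and 0.0024 with the sex term). The Cre-negative mean of Gli1, 5.37, was near the low end of the scale. Sufu, which restrains GLI proteins, fell to 9.15, 9.12 and 9.21 in Cre-positive arrays, against 9.87, 9.79 and 9.79 in Cre-negative arrays (-0.66 ± 0.08, limma adjusted p = 0.00117). The ligand gene Ihh (0.47 ± 0.11), Gli3 (0.51 ± 0.15) and Wwtr1, which encodes the GLIS3 partner TAZ (0.54 ± 0.09), also rose. Ihh lost its call without Cre-negative replicate 3 (limma adjusted p = 0.0603), and of the 6 fits that left out 1 array Gli3 held in 1. With the sex term the calls of Gli1, Sufu and Ihh held, and those of Gli3 (limma adjusted p = 0.146) and Wwtr1 (0.0946) were lost. The differences with the sex term, 1.37 for Gli1, -0.63 for Sufu and 0.61 for Ihh, are those from the single male Cre-negative array. In the mean over both of its probe sets Sufu differed by -0.36, with its call kept. Of the 12 genes 7 had differences below 0 and 5 above. Among the 7 were Ptch1 (-0.14 ± 0.10), Smo (-0.08 ± 0.11) and Hhip (-0.02 ± 0.32), which did not pass.

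**Figure D3:**
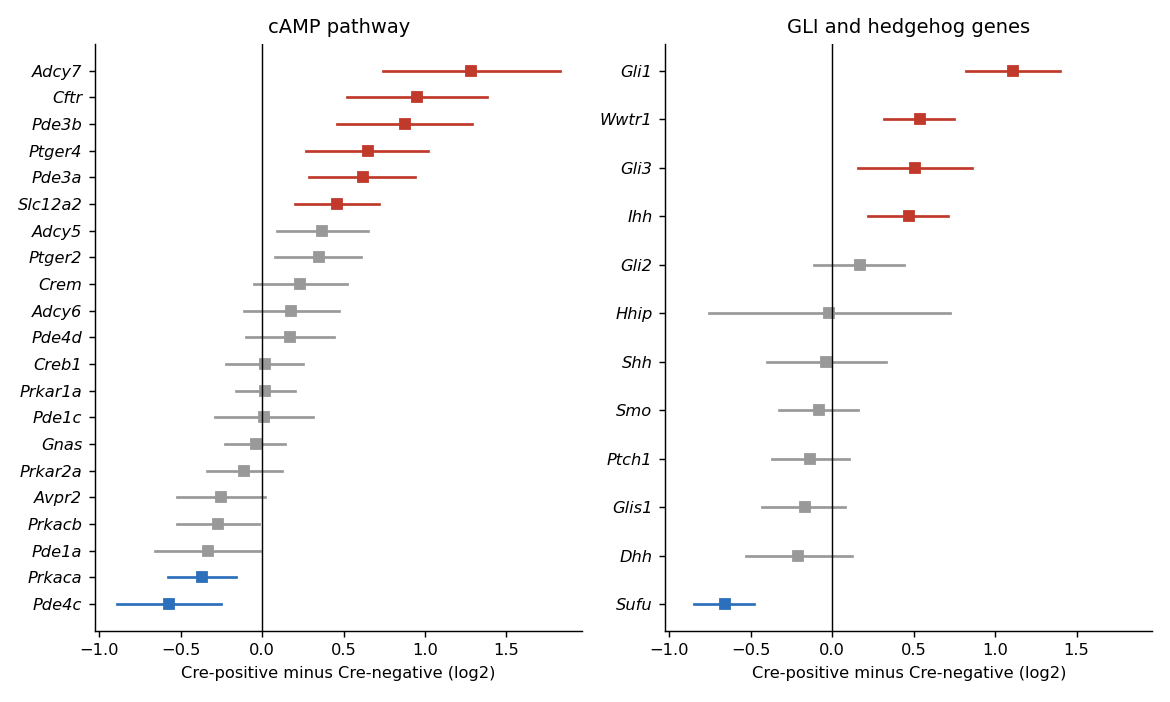
Difference of each measured cyclic AMP pathway gene (left) and GLI or hedgehog gene (right), Cre-positive minus Cre-negative log2 level with the 95% interval from limma. Red genes rose, blue genes fell and grey genes did not pass the test, with Adcy7 at 1.28 and Gli1 at 1.11 the largest differences.

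Of 17 measured growth, mTOR and cytokine genes that are reported as raised or active in cystic epithelium, 6 rose and 0 fell (35.3% called, against 21.8% of all tested genes called and 10.7% called higher, median 0.15). Besides Ccl2 and Lgals3, the rises were those of the proliferation factor Myc (1.98 ± 0.12), the transcription factor Stat3 (1.1 ± 0.08), the kinase gene Src (0.58 ± 0.09) and Tnf (0.71 ± 0.11), with limma adjusted p from 8.66e-05 to 0.00358. With the sex term Src alone of the 6 lost its call (limma adjusted p = 0.0552). Myc stood at 9.01, 9.15 and 8.87 in Cre-positive arrays, against 6.83, 7.21 and 7.05 in Cre-negative arrays, a ratio of 3.94. The growth factor receptor genes of the list, Egfr, Erbb2 and Met, did not pass (0.21 ± 0.10, -0.16 ± 0.14 and 0.13 ± 0.09). The mTOR genes Mtor (-0.48 ± 0.20) and Rheb (-0.27 ± 0.10) were lower and did not pass (limma adjusted p = 0.132 and 0.111). At an unadjusted limma p under 0.05, 3 of the 17 were lower and 6 higher, where 33.4% of all tested genes passed in either direction. Over the 7 lists together 27 of 97 genes were called (27.8%, against 21.8% of all tested genes), 17 higher and 10 lower. The lists were chosen with earlier results of these data known, so these shares describe the lists and do not test them.

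**Figure D4:**
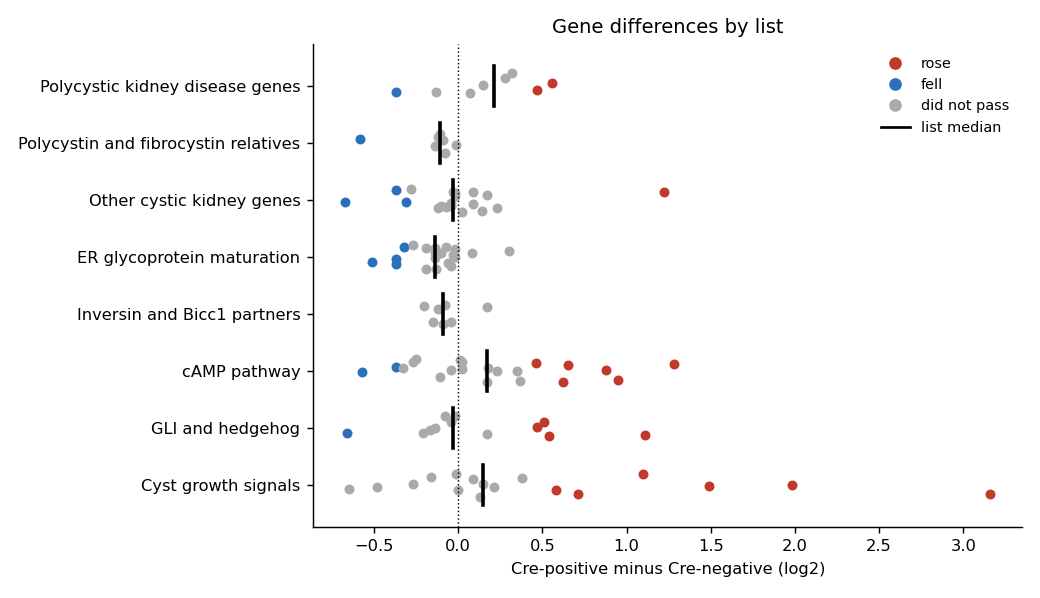
Difference of every measured gene in the 9-gene list and in 7 related lists, Cre-positive minus Cre-negative log2 level, with red points for genes that rose, blue for genes that fell, grey for the others and a black line for the list median. List medians lie between -0.14 and 0.22, and the largest rises are in the cyst growth, cyclic AMP, other cystic and GLI lists.

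Cell type markers moved between the same groups. The counts that follow are of called markers, where 10.7% of all tested genes were called higher and 11.1% lower. Principal cells of the collecting duct had 4 of 6 markers higher and 0 lower, with mean levels of 9.18 to 9.67 in Cre-positive and 8.88 to 9.12 in Cre-negative arrays. Of these 6, 5 had differences above 0, and Avpr2 differed by -0.25 ± 0.12 and did not pass. Fibroblast markers had 5 of 7 higher and 0 lower, with mean levels of 9.72 to 10.63 in Cre-positive and 9.22 to 9.32 in Cre-negative arrays. Myeloid markers had 6 of 7 higher, at 8.39 to 9.34 in Cre-positive and 6.97 to 7.09 in Cre-negative arrays, and proximal tubule markers had 5 of 6 lower. Markers of distal tubule (4 of 4), podocytes (3 of 4), intercalated cells (3 of 5) and thick limb (2 of 4) were also lower. With the sex term 2 of 4 calls held for principal cells, 1 of 5 for fibroblasts, 5 of 6 for myeloid and 5 of 5 for proximal tubule markers. For distal tubule 0 of 4 held, for podocytes 2 of 3, for intercalated cells 0 of 3 and for thick limb 1 of 2. Tubule injury markers had 5 of 5 higher, at 9.67 to 9.98 in Cre-positive and 6.53 to 6.80 in Cre-negative arrays. No mean level of these lists was at or near the bottom of the scale in either group. Single markers were near its low end in Cre-negative arrays, among them Krt20 (mean 5.19) and Itgam (mean 5.15).

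The part of these cell types in the differences of Pkd1, Bicc1, Glis3 and Ganab was not tested. Nor was their part in those of the related genes, such as Adcy7, Gli1, Ccl2, Lgals3 and Tnf.

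**Figure D5:**
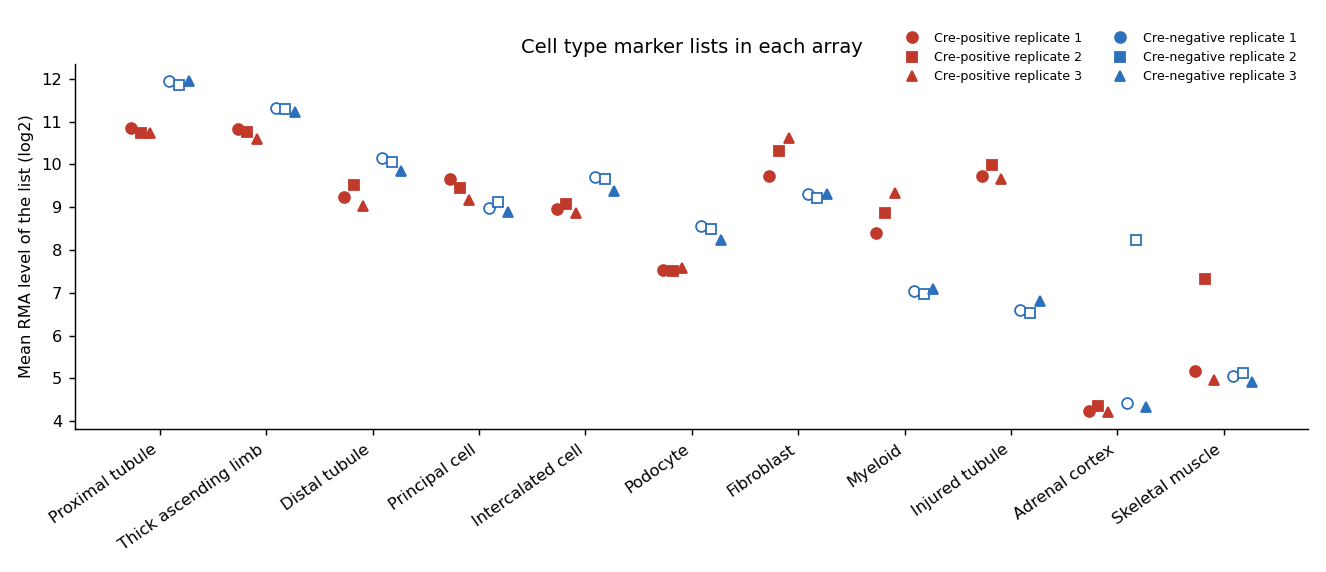
Mean log2 RMA level of 11 marker lists in each array, Cre-positive in red and Cre-negative in blue, with a circle, a square and a triangle for replicates 1, 2 and 3 and open symbols for the 2 arrays with female transcripts. Proximal tubule markers are lower and fibroblast, myeloid and injury markers higher in the Cre-positive arrays, and single arrays stand apart for adrenal and muscle markers.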

How the data were processed

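For 6 Affymetrix arrays of kidney RNA the authors deposited a table of RMA log2 values. The submitters' processing notes list Partek and RMA with no version. Its log2 scale was inferred from RMA's usual output and a range of 1.89 to 13.6. The genome build behind the probe sets is not given in the sources used here, and RMA compresses differences of dim probe sets. No depth applies, so the number of arrays limits precision. Of 41345 rows, 23521 had exactly 1 gene symbol in GEO's platform annotation, and the row of highest mean stood for each of 22180 genes. There were 0 columns of other samples. The 3 Cre-positive and 3 Cre-negative arrays were compared in R 4.3.3 by limma 3.58.1 (two-sided lmFit and eBayes without covariates), adjusted by Benjamini-Hochberg over the 22180 genes, and the fit was checked on simulated data. No filter on low values was applied.

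The members, lists and tests were chosen with earlier results of these data known. Named are the 9 members, Mpp5, up to 6 called genes of smallest p in each list, and the 3 genes most like the member of largest difference. Calr, Canx, Hspa5, Egfr, Erbb2, Met, Mtor, Rheb, Ptch1, Smo, Hhip, Avpr2, Krt20 and Itgam were chosen once their values had been seen. So were the genes of the closing section. Array sex was read from Xist and Y-linked genes. Alternatives were other normalizations, a filter, other eBayes settings, all rows, a stricter threshold, a replicate block, a sex term, male arrays alone and arrays left out. Promoter windows came from RefSeq (GRCm38.p6), which had 6 of the 9 members. List genes without a row of their own were not analysed here, and 1 further list and motif are not reported here. Python 3.11.15, pandas 2.3.3 and matplotlib 3.10.9 were used.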

Additional observations from a re-analysis of the deposited data

How the results depend on the processing

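The alternatives were run for 34 genes, namely Mpp5, the 8 measured genes and 25 called related genes, and none of these changed its sign. Pkd2l2, Gli1, Gli3 and Tnf lay below the median level, so they were absent from the fit that left out such genes. At a limma adjusted p under 0.05 the counts of polycystic kidney disease genes, of all genes and of the 97 related genes were 3, 4844 and 27. With the sex term they were 0, 2030 and 11, with male arrays only (3 against 1, the lone array being assumed to vary as the other group does) 0, 1101 and 6, and without both arrays with transcripts of other tissues 0, 1853 and 10. All 3 of these limma fits have fewer residual degrees of freedom, so losing a call there does not show an effect of sex or tissue. At an adjusted p threshold of 0.01 the counts were 1, 2516 and 15. Leaving out 1 array gave 1 to 4, 3141 to 4885 and 17 to 27, with the low ends without Cre-negative replicate 2, 1 and 3 in that order. Without Cre-positive replicate 3, Pkhd1 and Glis3 passed. Of 25 called related genes that were named, 16 kept their call without each array in turn and 11 kept it with the sex term. Same-numbered arrays did not deviate together over all genes (correlations of deviations 0.030, -0.042 and -0.015), which cannot show whether they were paired. With the replicate block the counts were 2, 3977 and 19. Bicc1 lost its call there (limma adjusted p = 0.0688), as it did with every row tested (0.0581). Median centring left 38.2% of the called genes on the higher side, against 49.0%, and called the same number of the 8 genes.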

Other observations

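Of the 97 related genes 70 did not pass the test, and in 16 of these the groups did not overlap. The share over all tested genes, 38.5%, includes the called genes, so it is not a matching base for these 16. Sec61a1, Umod and Ccnd1 are 3 of the 16, chosen after their values were seen. Sec61a1, the pore subunit of the ER translocation channel, stood at 11.25, 11.13 and 11.44 in Cre-positive arrays, against 10.97, 10.94 and 11.00 in Cre-negative arrays, higher in all 3, while 18 of the 20 ER genes had differences below 0 (0.30 ± 0.10, limma adjusted p = 0.0671). Umod, the gene of uromodulin, differed by -0.28 ± 0.09 (limma adjusted p = 0.0559). Ccnd1, the cyclin D1 gene, was at 9.30, 10.24 and 9.88 in Cre-positive arrays, against 10.47, 10.40 and 10.50 in Cre-negative arrays, lower in all 3 (-0.65 ± 0.21, limma adjusted p = 0.0646), beside the rise of Myc. The proliferation marker gene Mki67 spread from 7.15 to 8.35 in Cre-positive and from 7.54 to 8.28 in Cre-negative arrays and averaged 7.88 in both groups.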
